A study of Mus musculus with 45 samples.

Results

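The mouse Hox genes, 39 protein-coding genes of the Hoxa, Hoxb, Hoxc and Hoxd clusters, were followed in cultured embryonic forelimbs exposed to bisphenol A. They were chosen by name and gene type alone, as every protein-coding gene whose symbol is Hox, a cluster letter from a to d and a number, and they took 40 rows among the 36300 genes of the deposited tables because Hoxd4 is listed under 2 identifiers. Forelimbs of CD1 mouse embryos were taken on gestational day 13, pooled, and cultured in medium with the vehicle dimethyl sulfoxide or with bisphenol A (BPA, a plastics chemical) at 10 or 50 µM. RNA was sequenced after 3, 24 and 48 h, with 5 libraries in each of the 9 groups and 45 in all. Limbs of both sexes shared the bottles, and the labels do not tie the 5 replicates of a group to different litters or mothers. The p-values therefore speak only for the scatter among these 45 libraries, part of which may be technical.

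Hox genes encode homeodomain transcription factors that give cells their position along the body axis and, in the limb, along the axis from shoulder to digits. Genes of a cluster lie in the order of their number, with low numbers at the 3' end, and genes of the same number in different clusters are paralogs. In the limb bud, groups 9 and 10 act in the upper limb, group 11 in the forearm and groups 12 and 13 in the hand plate, where Hoxa13 and Hoxd13 are needed for digits and Hoxd genes are read from enhancers on either side of their cluster.

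The Hoxa cluster held 11 of the genes on chromosome 6 (positions 52155590 to 52260880, minus strand, GRCm38), and the Hoxb cluster 10 on chromosome 11 (96194316 to 96368256, plus strand). Hoxc held 9 on chromosome 15 (102921103 to 103036852, plus strand) and Hoxd 9 on chromosome 2 (74668310 to 74765142, plus strand). Library totals ran from 17.54 to 27.12 M counts. A count of 0 in a library still allows up to 3 counts, or 0.111 to 0.171 counts per M (CPM) depending on its depth, for counting error alone. The tissue label was checked on marker genes. The 7 limb mesenchyme markers, among them Prrx1 and Twist1, summed to between 1360 and 2278 CPM in each of the 45 libraries. The forelimb factor Tbx5 stood at 200 to 347 CPM, and the hindlimb factors Tbx4 and Pitx1 together at 19.3 to 32.3 CPM. CPM values are on library sizes scaled by TMM, a method that evens out composition. They compare one gene between libraries. Levels of different genes were compared only as deposited FPKM, fragments per kilobase of transcript scaled to library depth.

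The 9 Hoxa and Hoxd genes numbered 9 to 13 carried most of the Hox RNA. In vehicle cultures of 3 h, Hoxd13 was the highest with 147 ± 8.83 FPKM (SD, n = 5), 181st among 19058 protein-coding genes. Hoxa10 followed with 54.1 ± 3.76 FPKM and Hoxd12 with 50.4 ± 4.23 FPKM, and their ranges overlapped. Hoxa13 (35.9 ± 5.87 FPKM) and Hoxd10 (34.8 ± 1.07 FPKM) came next and overlapped as well. Hoxd11 had 23.1 ± 1.79 FPKM, Hoxd9 22.3 ± 3.27 FPKM, Hoxa9 17.0 ± 0.979 FPKM and Hoxa11 16.0 ± 1.66 FPKM, with overlap inside each of the pairs Hoxd11 with Hoxd9 and Hoxa9 with Hoxa11. Below them, with no overlap of libraries, stood Hoxd8 at 6.83 ± 0.53 FPKM and Hoxa5 at 4.77 ± 0.232 FPKM.

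The other clusters were low. The highest Hoxc gene at 3 h in vehicle was Hoxc13, known for its role in hair and nail keratin genes, at 2.38 ± 0.37 FPKM, which overlapped Hoxc12 at 2.07 ± 0.722 FPKM, and the lowest Hoxc gene was Hoxc9 at 0.36 ± 0.209 FPKM. In Hoxb, Hoxb9 (0.723 ± 0.193 FPKM) and Hoxb4 (0.712 ± 0.126 FPKM) could not be ordered, Hoxb2 had 0.251 ± 0.0724 FPKM, and Hoxb6 had 0.231 ± 0.0956 FPKM. Hoxd3, the lowest Hoxd gene past the filter on low counts, stood at 0.158 ± 0.0446 FPKM. Of all Hox FPKM in these 5 libraries, Hoxd made up 65.5% ± 0.663, Hoxa 31.5% ± 0.652, Hoxc 2.25% ± 0.32 and Hoxb 0.738% ± 0.106. Hoxd genes 9 to 13 alone made up 63.9% ± 0.626, and Hoxa genes 9 to 13 made up 28.3% ± 0.646.

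**Figure D1:**
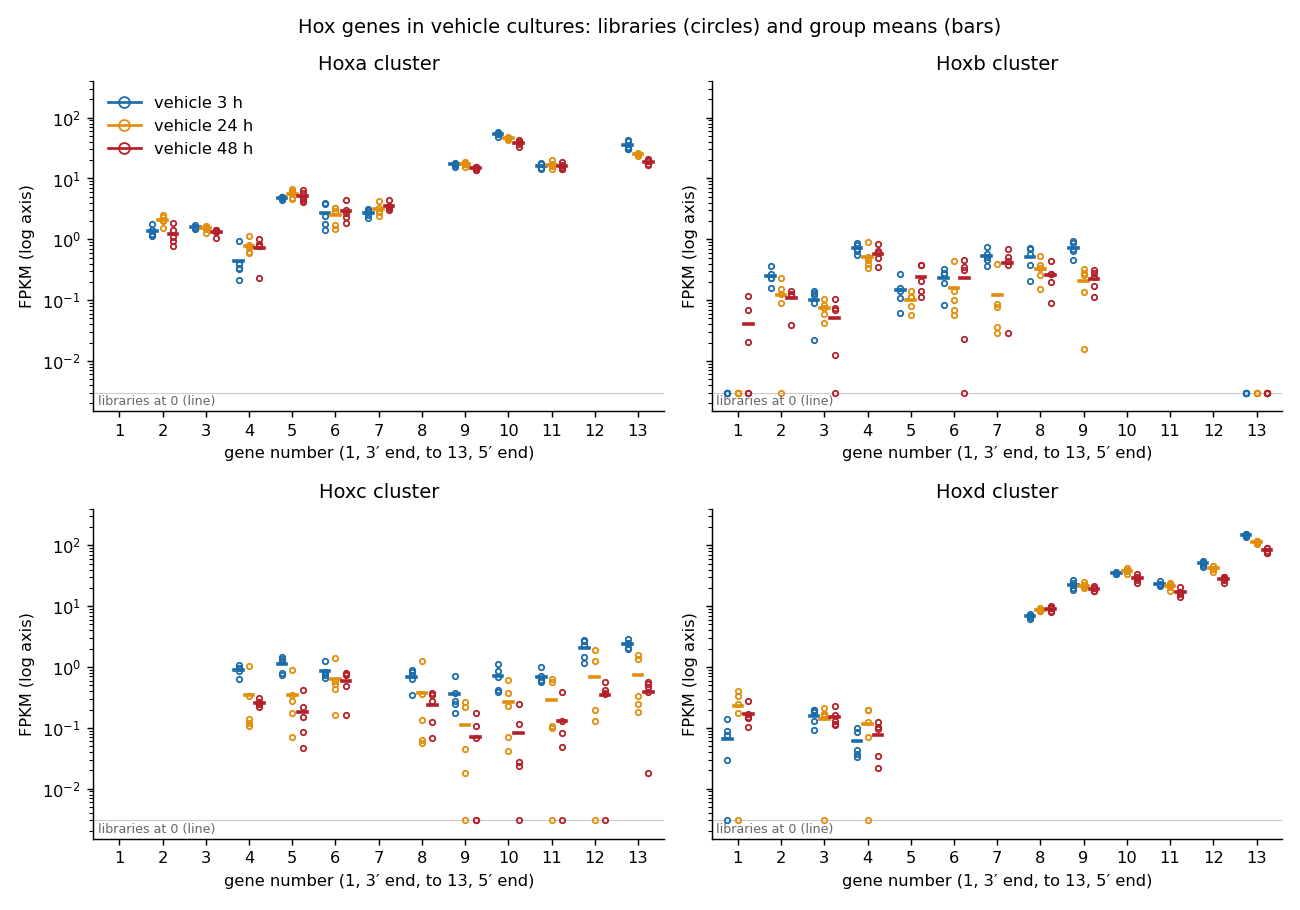
Deposited FPKM (log axis) of Hox genes against their number in the cluster, one panel per cluster, in vehicle libraries of 3, 24 and 48 h. Circles are libraries, bars are group means, and libraries at 0 sit on the line at the bottom. In Hoxa and Hoxd the genes from number 9 up lie above those of lower number, and Hoxd13 is the highest gene at every time.

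Promoter sequences are shown for 4 genes that moved differently during culture, Hoxd13, Hoxd12 and Hoxa13, which fell, and Hoxd8, which rose (values follow). Each is the 250 bases before the gene's RefSeq start in GRCm38.p6, 5' to 3' on the gene's strand, at chr2:74667975-74668224 for Hoxd13, chr2:74674763-74675012 for Hoxd12, chr6:52260881-52261130 (minus strand) for Hoxa13 and chr2:74704365-74704614 for Hoxd8. Capitals mark the TATA box letters TATAAA, the CCAAT box letters and the GC box letters GGGCGG on either strand, where adjoining matches run together.
Hoxd13: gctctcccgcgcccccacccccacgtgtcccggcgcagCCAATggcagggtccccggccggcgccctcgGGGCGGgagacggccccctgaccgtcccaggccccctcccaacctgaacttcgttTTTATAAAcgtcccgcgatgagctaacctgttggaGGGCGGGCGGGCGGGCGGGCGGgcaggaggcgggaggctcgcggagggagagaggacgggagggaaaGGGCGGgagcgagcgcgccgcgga
Hoxd12: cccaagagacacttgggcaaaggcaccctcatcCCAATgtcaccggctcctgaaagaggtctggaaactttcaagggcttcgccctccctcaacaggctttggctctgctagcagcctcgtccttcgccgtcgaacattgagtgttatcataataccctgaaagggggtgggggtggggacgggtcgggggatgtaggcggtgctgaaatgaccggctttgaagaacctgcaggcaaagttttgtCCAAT
Hoxa13: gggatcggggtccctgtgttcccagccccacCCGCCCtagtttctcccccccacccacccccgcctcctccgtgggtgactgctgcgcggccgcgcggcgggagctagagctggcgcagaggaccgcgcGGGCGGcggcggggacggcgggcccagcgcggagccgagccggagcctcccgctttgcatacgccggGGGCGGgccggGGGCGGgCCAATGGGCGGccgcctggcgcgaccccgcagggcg
Hoxd8: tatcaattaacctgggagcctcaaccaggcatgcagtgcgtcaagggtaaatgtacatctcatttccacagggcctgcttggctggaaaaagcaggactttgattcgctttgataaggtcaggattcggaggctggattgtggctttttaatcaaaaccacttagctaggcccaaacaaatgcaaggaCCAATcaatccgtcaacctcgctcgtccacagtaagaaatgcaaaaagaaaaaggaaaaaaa
The Hoxd13 window held 31 CpG dinucleotides, 7 GGGCGG matches, 1 CCAAT match and 2 overlapping TATAAA matches on opposite strands. The Hoxa13 window held 35 CpG, 5 GGGCGG and 1 CCAAT and no TATAAA, so both number 13 genes had GC-rich starts. Hoxd12 had 10 CpG and 2 CCAAT, and Hoxd8 had 6 CpG and 1 CCAAT, with neither TATAAA nor GGGCGG in either window. Among 32851 promoters of this length, 12.4% held TATAAA, 33.8% CCAAT and 32.7% GGGCGG on either strand, as did 4, 14 and 10 of the 22 Hox symbols that the RefSeq set holds. TGATNNAT, letters bound by Hox and Pbx proteins together, occurred in 7.68% of all promoters and in 4 of the 22 Hox symbols (Hoxa2, Hoxb1, Hoxb8 and Hoxd11), and TTTACGA, bound by posterior Hox proteins, in 0.478% and in 1 (Hoxb8). Neither was found in the 4 windows shown. A match describes the letters and not a bound site.

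The first comparison asked how Hox RNA changed while vehicle cultures aged from 3 to 48 h. Summed over the clusters, Hox RNA stood at 1191 ± 39.8 CPM at 3 h, 1025 ± 47.5 CPM at 24 h and 804 ± 44.4 CPM at 48 h (SD, n = 5 each). Between 3 and 48 h, 32 of the 40 rows passed the filter on low counts. By edgeR's quasi-likelihood test with Benjamini-Hochberg adjustment at 0.05 over all genes, 16 fell and 2 rose, against 46.7% of all 16905 genes called in either direction, 22.9% lower and 23.9% higher. The median log2 fold change of the 32 was -0.47, and that of all genes tested was -0.01. The filter favoured falls among some Hoxb and Hoxc genes, as described below. Rows not tested were Hoxb1, Hoxb3, Hoxb5, Hoxb13, Hoxc9, Hoxd1 and both rows of Hoxd4, all too low. A fall in bulk tissue can mean fewer cells of a type or less RNA per cell, and these cannot be told apart.

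Within Hoxa and Hoxd, the genes called lower and those called higher had different positions. Of the 9 numbered 9 to 13, 7 fell and 0 rose, with a median of -0.45 and a range from -0.93 to -0.02 on the log2 scale. Of the 9 tested with numbers 1 to 8, 0 fell and 2 rose, Hoxa7 and Hoxd8, with a median of 0.10. Of all genes 22.9% fell and 23.9% rose, so the share that rose was near the background. The Hoxa7 call was also weak, as described below. Along Hoxd toward the 5' end, the values went from -0.21 at Hoxd9 and -0.28 at Hoxd10 through -0.45 at Hoxd11 to -0.85 at Hoxd12 and -0.84 at Hoxd13. Hoxd9 did not pass the test (adjusted p = 0.0785, edgeR). The differences between neighbouring genes were not tested.

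Hoxd13, the most 5' gene of its cluster and a regulator of digit formation, had 387, 369, 339, 389 and 359 CPM in the 5 vehicle libraries of 3 h. It had 291, 282, 261, 288 and 293 CPM at 24 h, and 225, 189, 187, 202 and 225 CPM at 48 h. The 3 times did not overlap, a separation found for 21.9% of all genes between 3 and 24 h, 8.35% between 24 and 48 h and 33.8% between 3 and 48 h. The log2 fold change was -0.37 ± 0.06 (SE) from 3 to 24 h (edgeR adjusted p = 0.000191) and -0.47 ± 0.07 from 24 to 48 h (adjusted p = 0.000426). Over the whole span it was -0.84 ± 0.07, a 1.79-fold fall (edgeR adjusted p = 8.06e-08). Hoxd13 was nonetheless still the highest Hox gene at 48 h, with 82.5 FPKM, 399th among protein-coding genes.

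Hoxa13, its paralog in the Hoxa cluster, had 104, 78.0, 83.1, 105 and 77.1 CPM at 3 h in vehicle. At 24 h it had 58.0, 63.0, 63.7, 63.1 and 64.6 CPM, and at 48 h 52.6, 40.5, 50.0, 42.4 and 48.7 CPM. Every library of a later time lay below every library of an earlier one. The fall from 3 to 48 h was 1.91-fold (log2 -0.93 ± 0.11 SE, edgeR adjusted p = 2.52e-06). The Hoxd13 to Hoxa13 ratio of FPKM was 4.16 ± 0.498 at 3 h and 4.39 ± 0.415 at 48 h (SD, n = 5), with overlapping libraries. Hoxd12, next to Hoxd13, had 133, 141, 114, 121 and 137 CPM at 3 h, 118, 102, 91.2, 118 and 107 CPM at 24 h, and 78.0, 71.9, 76.8, 67.4 and 61.2 CPM at 48 h. Its 3 h and 24 h libraries overlapped and its 48 h libraries lay below both. It fell by 0.60 ± 0.09 on the log2 scale from 24 to 48 h (edgeR adjusted p = 0.000515) and by 0.85 ± 0.08 from 3 to 48 h (adjusted p = 2.02e-07).

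Hoxa10, which acts in the upper limb, was the main Hoxa transcript. Its libraries held 178, 194, 160, 185 and 176 CPM at 3 h, 153, 152, 142, 152 and 161 CPM at 24 h, and 132, 110, 130, 139 and 120 CPM at 48 h. The 3 h range touched the 24 h range through 1 library of each, and the 48 h libraries were the lowest. The fall from 3 to 48 h was 1.41-fold (log2 -0.50 ± 0.07 SE, edgeR adjusted p = 3.2e-05). Hoxa11, a forearm gene, differed: its 5 libraries held 33.3 to 42.1 CPM at 3 h (median 34.8), 33.4 to 45.9 at 24 h and 33.3 to 42.4 at 48 h, all overlapping, with a log2 fold change of -0.02 ± 0.09 from 3 to 48 h (edgeR adjusted p = 0.906). Of the exonic length of Hoxa11, 35% is shared with the antisense gene Hoxa11os, and strand use in counting is not stated, so its value is uncertain. Hoxa9 fell by 0.21 ± 0.06 (adjusted p = 0.0125) and Hoxd10 by 0.28 ± 0.08 (adjusted p = 0.00809, both edgeR, log2 scale) from 3 to 48 h.

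Hoxd8, whose gene lies just 3' of Hoxd9, went the other way. It had 19.1, 18.5, 16.9, 19.2 and 21.0 CPM at 3 h, 24.2, 23.2, 25.9, 23.7 and 23.3 CPM at 24 h, and 27.8, 25.7, 22.0, 25.4 and 22.9 CPM at 48 h. All later libraries lay above all 3 h libraries, and 24 and 48 h overlapped. The rise was 0.36 ± 0.08 on the log2 scale to 24 h (edgeR adjusted p = 0.00507) and 0.39 ± 0.09 to 48 h (adjusted p = 0.00248). Within each library, the ratio of Hoxd13 to Hoxd8 FPKM ran from 18.9 to 22.4 at 3 h, from 11.1 to 13.9 at 24 h and from 8.11 to 10.9 at 48 h, with no overlap between times. This ratio combines 2 genes already described and adds no separate evidence. Hoxa7, of the same region of Hoxa, rose by 0.35 ± 0.14 from 3 to 48 h (edgeR adjusted p = 0.0473), but its libraries overlapped (6.49 to 9.26 CPM at 3 h, 8.77 to 12.6 at 48 h) and the call was lost in 7 of 10 fits that left out 1 library, with adjusted p up to 0.144. It was also lost with upper-quartile factors (adjusted p = 0.0678), with no filter (0.078) and with all 45 libraries in one edgeR fit (0.0557).

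**Figure D2:**
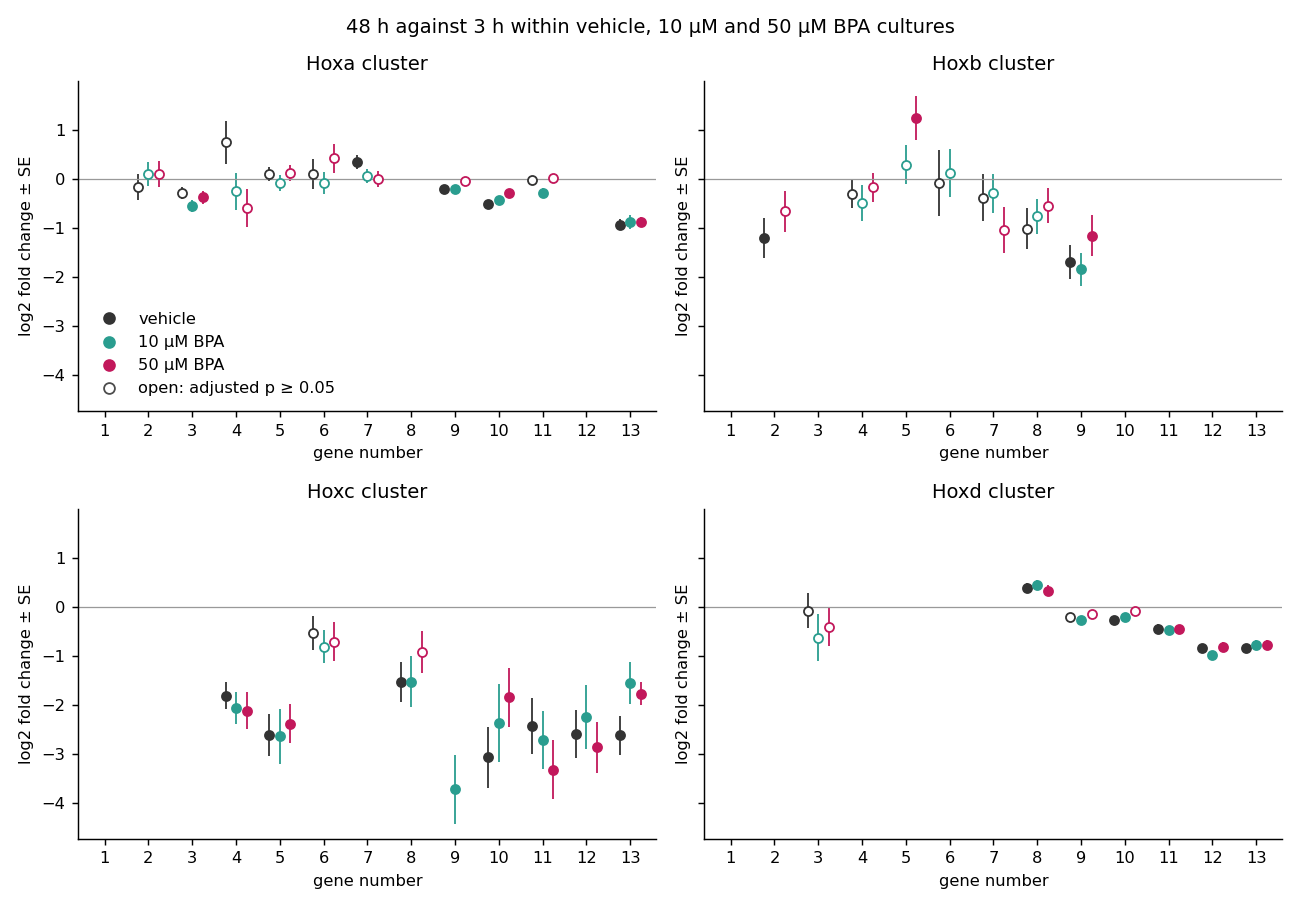
Log2 fold change from 3 to 48 h (points, with SE bars) against gene number, one panel per cluster, fitted separately in vehicle, 10 µM and 50 µM BPA libraries. Filled points passed the adjusted threshold of 0.05 in edgeR. Hoxd8 lies above 0 and Hoxd12 and Hoxd13 below it in all 3 fits, and the Hoxc genes lie below 0.

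The 48 h were also compared in 2 steps. From 3 to 24 h, 32 rows were tested, 8 fell and 2 rose (edgeR), where 30.0% of all genes were called (13.8% lower, 16.3% higher), and the median was -0.33 against 0.00 for all genes. From 24 to 48 h, 27 rows were tested, and 7 fell and 0 rose, where 8.45% of all genes were called, 3.02% lower and 5.44% higher, and the median was -0.23 against -0.01. All 7 that fell after 24 h were Hoxa or Hoxd genes from 9 to 13, namely Hoxa9, Hoxa10, Hoxa13, Hoxd10, Hoxd11, Hoxd12 and Hoxd13, and 4 of them (Hoxa10, Hoxa13, Hoxd12 and Hoxd13) had also fallen from 3 to 24 h. Hoxd10 passed the test in the second step and not in the first. It had 61.8 to 66.4 CPM at 3 h (median 63.4), 62.5 to 78.2 at 24 h (median 71.3) and 43.3 to 60.8 at 48 h (median 52.8), with log2 fold changes of 0.15 ± 0.07 (edgeR adjusted p = 0.0985) and then -0.44 ± 0.09 (adjusted p = 0.00493). The difference between the 2 steps was not tested. The 24 h libraries enter both steps, and the 3 and 48 h libraries enter the comparison over the whole span.

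Weaker calls depended on single libraries. From 24 to 48 h only 4 of the genes were called without vehicle replicate 5 of 24 h, when Hoxa9 (adjusted p = 0.0753), Hoxa10 (0.0505) and Hoxd11 (0.0734) missed the threshold (edgeR). Hoxa9 was lost in 7 and Hoxd11 in 5 of the 10 fits that left out 1 library. Hoxa2, a gene of head and neck patterning whose rise from 3 to 24 h was 0.64 ± 0.21 (edgeR adjusted p = 0.0293), was lost in 7 of 10, with adjusted p up to 0.0715, and with no filter on low counts (0.0816). Its libraries held 2.02, 2.19, 3.24, 2.53 and 2.11 CPM at 3 h and 2.76, 4.16, 4.42, 3.77 and 3.65 CPM at 24 h, which overlapped, and 1.37 to 3.23 CPM at 48 h. The Hoxd12 fall to 24 h was lost in 5 of 10, with adjusted p up to 0.0697. Calls for Hoxd13, Hoxa13 and Hoxd8 from 3 to 24 h and from 3 to 48 h held in every fit of that kind.

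The authors' deposited table for 48 against 3 h lists 17 Hox genes lower and 1 higher (Hoxd8) at an adjusted p under 0.05. The authors' deposited table for 24 against 3 h lists 10 lower and 2 higher, and the authors' deposited table for 24 to 48 h lists 8 lower and 0 higher. The share of all genes under that threshold was not counted there, so these numbers cannot be set against a background.

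The time course was also fitted in the dosed cultures, whose libraries are not those of the vehicle fits. From 3 to 48 h, 19 of 33 tested rows fell and 1 rose in 10 µM BPA (edgeR, 42.5% of all genes called, 20.8% lower and 21.7% higher). In 50 µM BPA 13 of 32 fell and 2 rose (46.2% called, 22.9% lower and 23.4% higher). Of the 18 rows called in vehicle, 16 were called in the same direction at 10 µM and 13 at 50 µM. Hoxd13 fell by 0.77 ± 0.09 in each dose (log2 scale, adjusted p = 8.08e-06 and 2.09e-06), Hoxa13 by 0.87 ± 0.14 and 0.87 ± 0.09, and Hoxd12 by 0.99 ± 0.09 and 0.82 ± 0.10. Hoxd8 rose by 0.45 ± 0.09 and 0.33 ± 0.11, and the other row that rose at 50 µM was Hoxb5. Among Hoxa and Hoxd genes from 9 to 13, 9 of 9 fell at 10 µM and 5 of 9 at 50 µM. Hoxa3, of the lower-numbered genes and not called in vehicle, fell at both doses. Its log2 fold change was -0.55 ± 0.13 at 10 µM (edgeR adjusted p = 0.00378) and -0.37 ± 0.13 at 50 µM (edgeR adjusted p = 0.0242). From 24 to 48 h, 8 rows fell and 0 rose at 10 µM (12.2% of all genes called, 4.61% lower and 7.62% higher). At 50 µM 9 fell and 0 rose (11.4% called, 4.27% lower and 7.15% higher), and each dose included all 7 of vehicle. From 3 to 24 h, 10 fell and 0 rose at 10 µM (28.7% called, 14.2% lower and 14.5% higher), and 4 of these were among the 10 of vehicle. At 50 µM 9 fell and 3 rose (31.1% called, 15.5% lower and 15.6% higher), and 5 were among the 10 of vehicle.

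**Figure D3:**
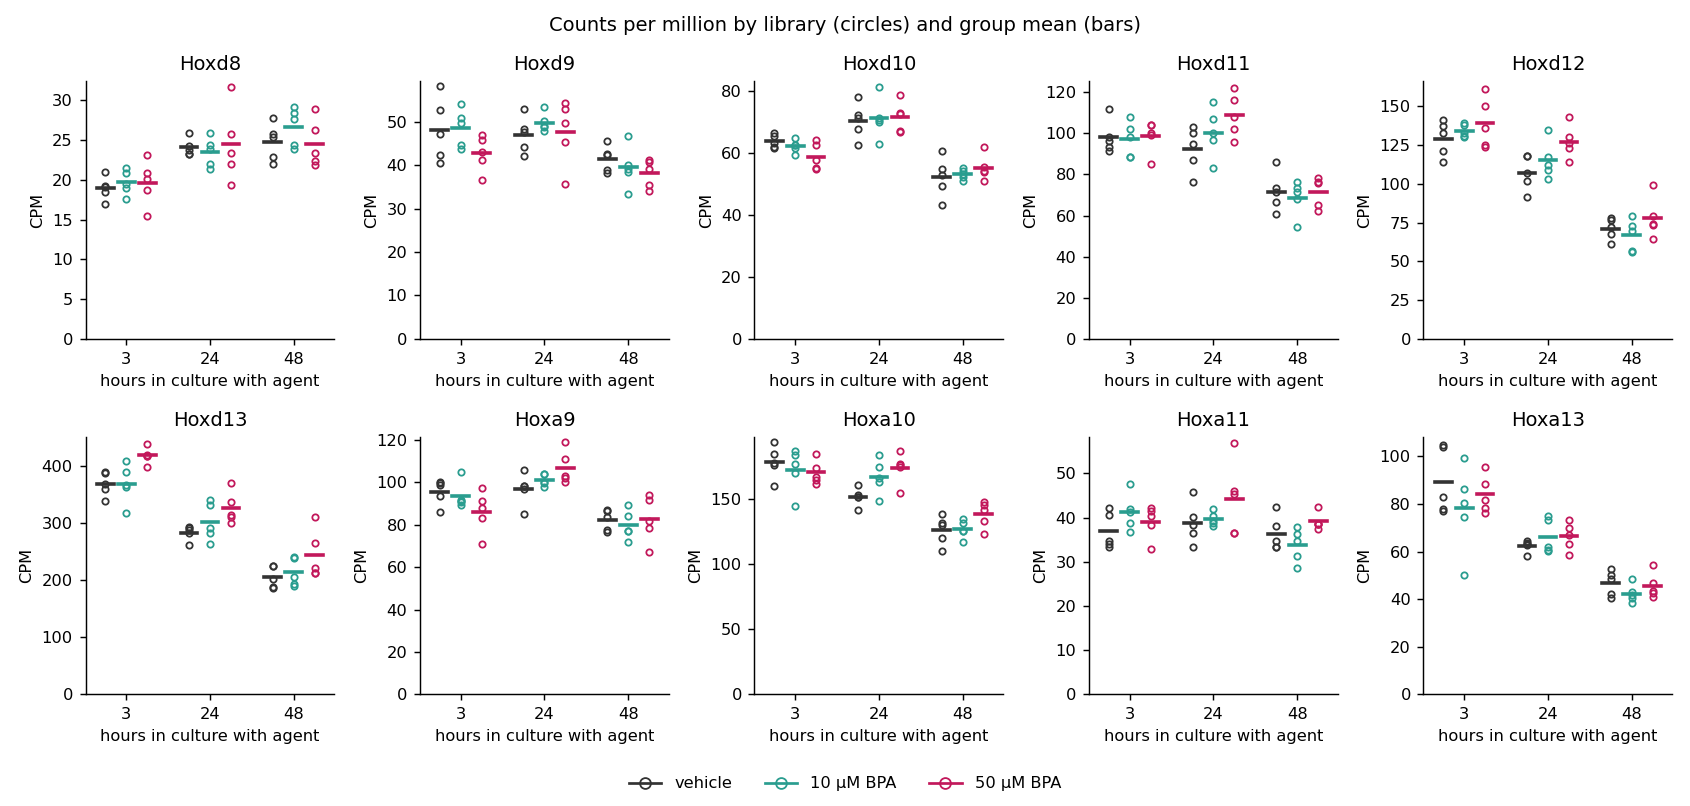
CPM of 10 Hoxa and Hoxd genes in all 45 libraries (points), arranged by time and dose, with the mean of each group of 5 as a bar. The group means of Hoxd13, Hoxa13 and Hoxd12 step down with time in every dose, and those of Hoxd8 are higher at 24 and 48 h than at 3 h.

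Other markers moved over the same hours. The cartilage markers (5 of 5 found, among them Sox9 and Col2a1) summed to 3299 to 4103 CPM at 3 h, 8021 to 9749 at 24 h and 11297 to 15683 at 48 h in vehicle, and from 3 to 48 h 4 of the 5 rose and 1 fell (edgeR). The limb mesenchyme markers (7 of 7 found) went from 1951 to 2278 CPM at 3 h to 1375 to 1535 at 48 h, and all 7 fell (edgeR). The muscle markers (8 of 8 found) went from 851 to 930 CPM to 2425 to 3880 CPM, and no marker of these lists was at 0 in any group. Of other cell type lists, 4 of 5 macrophage markers rose, and 5 of 5 erythroid and 5 of 6 endothelial markers fell (edgeR). Of 5 Schwann and neural markers tested, 4 fell and 1 rose. Over the same span 23.9% of all genes rose and 22.9% fell. The part of cell composition in the Hox falls was not tested.

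The Hoxc cluster had the steepest falls. Of 8 Hoxc genes tested from 3 to 48 h, 7 fell in edgeR and 0 rose, where 22.9% of all genes fell and 23.9% rose. The median was -2.50 on the log2 scale. Hoxc10, Hoxc11 and Hoxc12 passed the filter on low counts through their 3 h libraries and had 0 to 15 counts at 48 h. Hoxc5 and Hoxc8 also passed through their 3 h libraries, with 3 to 23 and 4 to 20 counts at 48 h. The filter thus favoured falls among these genes, and the number of Hoxc falls and the median carry that bias. It left Hoxc10, Hoxc11 and Hoxc12 untested from 24 to 48 h. Hoxc13 had 5.99, 7.30, 4.96, 6.11 and 5.18 CPM at 3 h, 3.41, 0.832, 3.83, 0.609 and 0.450 at 24 h and 1.16, 1.28, 1.39, 0.0451 and 0.965 at 48 h. All later libraries were below all 3 h libraries, and those of 24 h were split, with replicates 1 and 3 high. The fall to 48 h was 6.14-fold (log2 -2.62 ± 0.39 SE, edgeR adjusted p = 3.7e-05). Hoxc10, Hoxc11 and Hoxc12 fell by 3.07 ± 0.62, 2.42 ± 0.57 and 2.59 ± 0.49 on the log2 scale, and Hoxc10, a gene better known from the hindlimb, went from 0.746 to 2.18 CPM at 3 h to 0 to 0.473 at 48 h. The central genes Hoxc4 (-1.81 ± 0.27), Hoxc5 (-2.61 ± 0.42) and Hoxc8 (-1.54 ± 0.41) fell as well, and Hoxc6 (-0.54 ± 0.35, edgeR adjusted p = 0.229) did not pass the test. These values rest on few reads, since no Hoxc gene but Hoxc13 exceeded 5 CPM in a vehicle library.

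Epidermal marker sums varied widely between libraries at 24 and 48 h and are given beside the Hoxc sums. At 24 h in vehicle, the 9 Hoxc genes summed to 12.4, 2.89, 20.1, 3.77 and 3.24 CPM, and the 10 epidermal markers (10 of 10 found, among them Krt5 and Krt14, none at 0 in any group) to 1436, 297, 1029, 85.5 and 86.0 CPM in the same order. Replicates 1 and 3 were high in both sums. At 3 h the Hoxc sum was 18.6 to 25.1 CPM and the epidermal sum 419 to 792 CPM. At 48 h the Hoxc sums were 5.99, 6.80, 6.84, 3.74 and 2.85 CPM and the epidermal sums 1013, 1081, 744, 54.2 and 359 CPM. The epidermal markers did not move together. From 3 to 24 h 2 of the 10 rose and 2 fell (edgeR, median log2 -0.40), where 16.3% of all genes rose and 13.8% fell. From 3 to 48 h 2 rose and 3 fell (edgeR, median log2 -0.89), where 23.9% of all genes rose and 22.9% fell. With the mean log level of the epidermal markers as a covariate, 16 Hox genes fell and 1 rose from 3 to 48 h, 17 of them among the 18 of the fit without it, and from 3 to 24 h the number that fell went from 8 to 13. The share of all genes called with the covariate is not given here. The change in number therefore cannot be read as particular to Hox genes. The part of epidermal cells in the Hoxc levels was not tested. The covariate fit cannot decide it, since its counts cover all Hox genes and the markers did not move together.

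**Figure D4:**
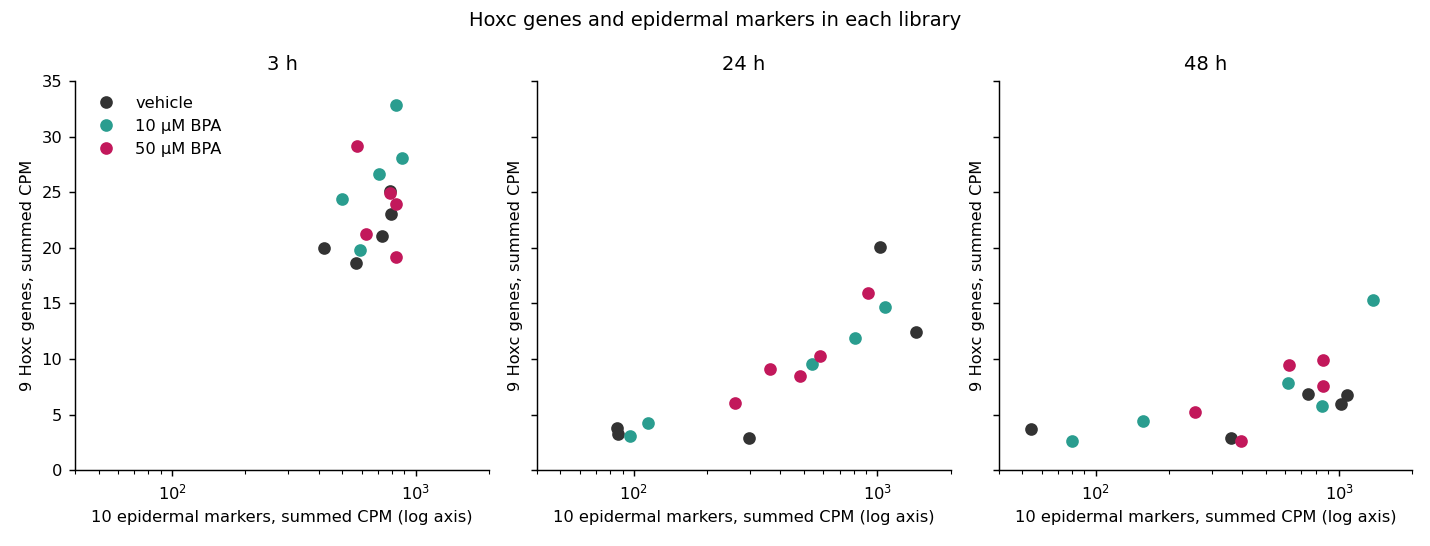
Summed CPM of the 9 Hoxc genes against summed CPM of 10 epidermal markers, one point per library, in panels by time and with colours by dose. The epidermal axis is a log axis. At 24 h the vehicle libraries with epidermal sums of 297 CPM or less have Hoxc sums of 3.77 CPM or less, and at 48 h the vehicle Hoxc sums lie between 2.85 and 6.84 CPM.

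In the Hoxb cluster, 2 of 6 tested genes fell from 3 to 48 h (edgeR), Hoxb9 and Hoxb2, and 0 rose, where 22.9% of all genes fell and 23.9% rose. Hoxb9, a posterior gene of the trunk and forelimb field, had 1.69, 1.18, 1.81, 2.43 and 2.28 CPM at 3 h, 0.853, 0.666, 0.721, 0.0406 and 0.360 at 24 h and 0.631, 0.797, 0.445, 0.722 and 0.290 at 48 h. All later libraries were below all 3 h libraries, and those of 24 and 48 h overlapped. The fall was 1.84 ± 0.47 on the log2 scale to 24 h (edgeR adjusted p = 0.00842) and 1.69 ± 0.34 to 48 h (adjusted p = 0.000582). Hoxb9 passed the filter on low counts through its 3 h libraries, so the filter favoured a fall. It had 21 to 52 counts at 3 h, 1 to 17 at 24 h and 6 to 16 at 48 h. Hoxb7 fell by 2.06 ± 0.57 from 3 to 24 h (edgeR adjusted p = 0.0129), from 0.561 to 1.14 CPM to 0.045 to 0.602 CPM, with replicate 1 of 24 h apart from the other 4. Hoxb7 passed the filter through its 3 h libraries, with 13 to 21 counts against 1 to 12 at 24 h. The filter thus favoured a fall here as well. From 3 to 48 h its value was -0.38 ± 0.48 (adjusted p = 0.548). Hoxb2 fell by 1.20 ± 0.40 (adjusted p = 0.0197), a call lost without vehicle replicate 1 of 3 h (adjusted p = 0.0641) or replicate 4 of 48 h (0.0535), with no filter on low counts (0.08) and with all 45 libraries in one edgeR fit (0.0613). Hoxb2 passed the filter through its 3 h libraries, with 10 to 23 counts against 3 to 9 at 48 h, so the filter favoured a fall. All Hoxb values stayed under 2.5 CPM in vehicle.

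The second comparison asked what BPA did to the Hox genes at each time, against the vehicle libraries that also enter the time course. Few Hox genes were called at any dose. At 50 µM and 24 h, 30 rows were tested, 1 rose and 0 fell (edgeR, 3.47% of all genes called, 1.37% higher and 2.10% lower). At 3 h 34 were tested and at 48 h 28, and at both times edgeR called 0 (1.41% and 9.18% of all genes called) and DESeq2 0, with 1 and 2 at an unadjusted p under 0.05. The median of the Hox rows was -0.02 at 3 h, 0.08 at 24 h and 0.06 at 48 h on the log2 scale, and that of all genes 0.00 each time.

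The gene that rose at 24 h was Hoxb5, a central Hoxb gene that in mice is known for placing the shoulder girdle. It had 0.401, 0.222, 0.315, 0.162 and 0.315 CPM in vehicle, 0.786, 1.03, 0.602, 0.340 and 0.673 at 10 µM, and 0.875, 1.13, 0.796, 1.53 and 0.978 at 50 µM. Vehicle and 50 µM did not overlap, as for 5.24% of all genes, and the 10 µM libraries overlapped both. The difference at 50 µM was 3.69-fold (log2 1.88 ± 0.38 SE, edgeR adjusted p = 0.014), and it was called in every fit that left out 1 library, with adjusted p up to 0.0478. Hoxb5 passed the filter on low counts only through the 50 µM libraries, where it was high, with 16 to 28 counts against 4 to 8 in vehicle. The call rests on at most 1.53 CPM, DESeq2 gave no adjusted p for it, and the 10 µM comparison did not test Hoxb5 because of low counts. The 50 µM value of Hoxb5 at 48 h was 0.93 ± 0.45 (edgeR adjusted p = 0.236).

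Hoxd13 had the same sign at 50 µM at all 3 times without passing the test. At 3 h it had 420, 418, 418, 439 and 399 CPM, all above the vehicle libraries of 339 to 389 CPM, a separation found for 4.12% of all genes. The log2 difference was 0.18 ± 0.06 (SE), with an adjusted p of 0.193 in edgeR. At 24 h it had 314, 310, 300, 337 and 370 CPM, again above all vehicle libraries (261 to 293), with 0.20 ± 0.06 (edgeR adjusted p = 0.109; DESeq2 adjusted p = 0.0365). At 48 h it had 311, 222, 212, 213 and 265 CPM against 187 to 225 in vehicle, with overlap, and 0.24 ± 0.10 (edgeR adjusted p = 0.149). Same-numbered libraries of vehicle and 50 µM deviated together at 48 h, and with the replicate number as a block Hoxd13 was called there at 0.23 (edgeR adjusted p = 0.00479). At 10 µM the ranges were 317 to 409 CPM at 3 h and 263 to 341 at 24 h, and the median at 48 h was 206 CPM, overlapping vehicle each time.

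Around Hoxd13 at 24 h, all 9 Hoxa and Hoxd genes from 9 to 13 had positive values at 50 µM. They ran from 0.01 for Hoxd9 to 0.24 for Hoxd11 and Hoxd12, with a median of 0.19. The genes were measured in the same libraries, so their signs are not 9 separate observations. None passed the edgeR test without a replicate block. Hoxa10 came closest, with 177, 176, 155, 175 and 187 CPM against 142 to 161 CPM in vehicle, overlapping through replicate 3 of 50 µM. Its difference was 0.19 ± 0.06 (edgeR adjusted p = 0.103), with an adjusted p of 0.0356 without that library and of 0.032 in DESeq2. With the replicate number as a block, edgeR called Hoxa10 (adjusted p = 0.0295), Hoxd13 (0.0305), Hoxd11 and Hoxd12. However, only 4 of 5 same-numbered pairs correlated above 0.1 at 24 h, so the pairing behind that fit is uncertain. At 3 h 3 of these 9 genes were above 0, and at 48 h 6 were. The authors' deposited table for 50 µM at 24 h lists Hoxa10, Hoxb5 and Hoxd13 as higher, and the authors' deposited table for each other dose comparison lists 0 Hox genes. The share of all genes listed there was not counted.

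The only other low unadjusted p at 48 h was that of Hoxa4. It had 1.26, 0.372, 1.22, 1.62 and 1.35 CPM in vehicle and 0.665, 0.506, 0.541, 0.254 and 0.635 CPM at 50 µM, so the groups overlapped through vehicle replicate 2. The value was -1.17 ± 0.40 (edgeR adjusted p = 0.0833), and without that library it was -1.39 (adjusted p = 0.0249). At 24 h leaving out single libraries also added calls at 50 µM: 3 rows were called without vehicle replicate 3, 2 without vehicle replicate 1 and 2 without 50 µM replicate 3.

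**Figure D5:**
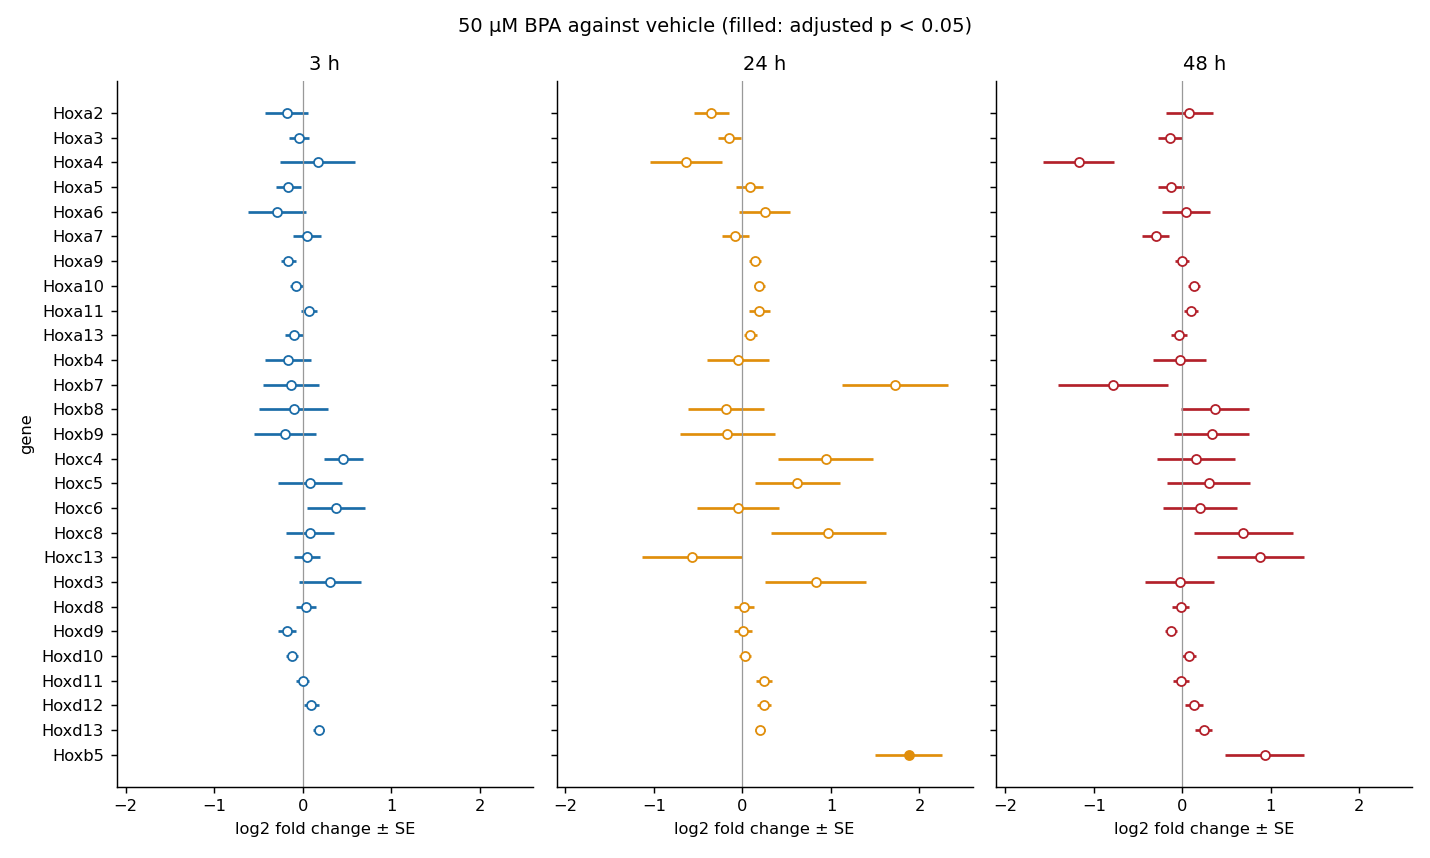
Log2 fold change of 50 µM BPA against vehicle (points, with SE bars) at 3, 24 and 48 h for 27 Hox genes, in the order of cluster and number with Hoxb5 last. The filled point passed the adjusted threshold of 0.05 in edgeR (Hoxb5 at 24 h), and Hoxd13 lies above 0 at each time.

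At 10 µM edgeR called 0 Hox genes at 3 h (34 tested), 24 h (29) and 48 h (28), and DESeq2 called 0 each time. Of all genes 0%, 0% and 0.00591% were called by edgeR. At an unadjusted p under 0.05 there were 5, 2 and 0 Hox genes, and the one of smallest p at 3 h was Hoxc6 (0.70 ± 0.23, edgeR adjusted p = 0.70). Between 50 and 10 µM, 0 of 34, 30 and 28 rows were called by edgeR and 0 by DESeq2, where 0.124%, 0.750% and 3.29% of all genes were called, and 1, 0 and 2 had an unadjusted p under 0.05. Whether the 50 µM effect changed with time was tested with an interaction term. It called 0 Hox genes in edgeR and 0 in DESeq2 for 24 against 3 h, 48 against 24 h and 48 against 3 h, with 4, 1 and 2 at an unadjusted p under 0.05, and 0.590%, 0% and 2.36% of all genes called. The smallest p was for Hoxa10 between 3 and 24 h, at 0.26 ± 0.09 (edgeR adjusted p = 0.23). Hoxb7 was called between 3 and 24 h only without vehicle replicate 1 of 24 h (2.86, adjusted p = 0.0164).

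Muscle and macrophage markers also differed at 50 µM. The muscle sum was 1405 to 1802 CPM against 1707 to 3036 in vehicle at 24 h, and 1228 to 1901 against 2425 to 3880 at 48 h. The macrophage sum (5 of 5 markers found, none at 0 in any group) was 74.2 to 83.8 CPM against 94.8 to 121 at 24 h, and 68.0 to 131 against 139 to 209 at 48 h. Their part in the Hox values at 50 µM was not tested.

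Genes that act with the Hox proteins or on the clusters were described from lists of names. For all of these lists, the background from 3 to 48 h is 46.7% of all genes called, 22.9% lower and 23.9% higher, and at 50 µM it is 3.47% at 24 h and 9.18% at 48 h. The TALE homeodomain proteins, Pbx, Meis and Pknox, bind DNA together with Hox proteins. Of 9, 6 fell and 2 rose from 3 to 48 h (median -0.57), with Meis2 at -1.68 ± 0.23 (edgeR adjusted p = 1.59e-05) and Meis1 at -1.10 ± 0.19, and with Meis3 (0.70 ± 0.19) and Pknox2 (0.49 ± 0.08) higher. At 50 µM 1 of the 9 was called higher and 0 lower at 24 h, and 1 higher and 1 lower at 48 h (edgeR).

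Of 14 noncoding genes of the clusters, 11 were found and 7 tested, and 2 fell from 3 to 48 h with 0 higher, a share lower close to the background. Hottip, transcribed from the 5' end of Hoxa next to Hoxa13 and known for holding active chromatin there, fell by 1.16 ± 0.23 to 24 h (edgeR adjusted p = 0.00143) and by 1.90 ± 0.19 to 48 h (adjusted p = 5.77e-07). The other was Gm53 (-1.18 ± 0.45, adjusted p = 0.0397), while Hoxa11os stood at -0.13 ± 0.10 (adjusted p = 0.308). Among cluster neighbours, 8 of the 10 found were tested, 3 fell and 1 rose, near the background of calls. Evx1, beyond Hoxa13, fell by 2.79 ± 0.62 and Evx2, beyond Hoxd13, by 0.36 ± 0.09, as did Lnpk (0.42 ± 0.11), and Skap2 at the other end of Hoxa rose by 0.51 ± 0.11. At 50 µM and 48 h Lnpk rose by 0.24 ± 0.06 (edgeR adjusted p = 0.0229) and Mtx2, on the far side of Hoxd, fell by 0.23 ± 0.06 (adjusted p = 0.0338).

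Of 18 Polycomb genes, whose products keep Hox genes silent where they are not used, 8 fell and 1 rose from 3 to 48 h (median -0.14). The share called in either direction was near the background, while the share lower was above it and the share higher below it. Jarid2 (-1.01 ± 0.07), Cbx2 (-0.94 ± 0.08) and the methyltransferase Ezh2 (-0.72 ± 0.07) were the lowest by value among those called, and Jarid2 rose at 50 µM by 0.30 ± 0.06 at 24 h (edgeR adjusted p = 0.00872) and 0.35 ± 0.06 at 48 h (adjusted p = 0.00141). Of 8 Trithorax genes and H3K27 demethylases, whose products keep genes open, 5 fell and 0 rose (median -0.24), among them Ash2l (-0.37 ± 0.06) and Kdm6b (-0.27 ± 0.06). At 50 µM and 48 h, 1 of the 8 fell, Ash2l, by 0.18 ± 0.05 (edgeR adjusted p = 0.0243).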

How the data were processed

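Poly-A RNA of each culture was sequenced. The 9 tables, each of 2 groups, hold counts per gene, deposited by the authors as whole numbers. They also hold FPKM deposited by the authors, and a normalised signal deposited by the authors as the count divided by 1 size factor per library and table. For each gene the authors deposited log2 fold changes of their own comparisons. Raw and adjusted p-values were deposited by the authors too. CASAVA 1.8, STAR 2.5, HTSeq 0.6.1, DESeq2 and build mm10 are named, without settings, per the submitters' processing notes. Annotation release and strand use are not given in the sources used here.

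Groups and times come from titles. The treatment text names 3 hours of culture for samples of every time, and a label field of the 50 µM libraries of 3 h gives 24 hours. The titles were followed. Library codes exchange replicates 1 and 2 of 10 µM BPA at 48 h. The same library's counts were equal in all tables (1345730 values compared).

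Counts were fitted with edgeR 4.0.16 in R 4.3.3 (filter with minimum count 10 and minimum total 15, TMM, quasi-likelihood test, Benjamini-Hochberg threshold 0.05), on the groups compared alone, after a test on simulated counts, with DESeq2 1.42.0 as an alternative. The SE is the log2 fold change divided by the root of its F statistic. CPM used TMM over all 45 libraries. The labels name no molecular identifiers, so limits from a count of 0 cover counting error only. Pairing was checked as the correlation of deviations of same-numbered libraries over genes, and all 5 exceeded 0.1 for 50 µM against vehicle at 48 h (0.15 to 0.32) and 10 µM at 24 h (0.11 to 0.46) and 48 h (0.15 to 0.51). Alternatives were other factors, no filter, all 45 libraries in one fit, a replicate block, an epidermal covariate, each library left out and, added after seeing the data, replicates 1 to 3 only, the dosed time courses and library-code numbering.

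The genes and lists were chosen with earlier results of these data known. Library values are given for up to 8 called genes of largest change per comparison, the 2 of smallest p where fewer than 3 were called, each cluster's highest and lowest gene, and, added later, Hoxa and Hoxd genes 9 to 13 and Hoxd8. Called genes of context lists were named, at most 6 per list and comparison. The lists were also compiled from general knowledge of Hox regulation and cell types. Values of some single genes are not reported here. Promoters and motifs were read from a RefSeq table of GRCm38.p6.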

Additional observations from a re-analysis of the deposited data

Results flagged for a closer look

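In 279 sets of 5 libraries (1 gene in 1 group), 18 had a library whose gap to the next exceeded Dixon's limit, where chance gives about 1 in 20. In vehicle, these were Hoxa4 at 3 h in replicate 2 (1.52 CPM, others 0.345 to 0.62), and at 24 h Hoxa13 in replicate 1 (58 CPM, others 63 to 64.6), Hoxb7 in replicate 1 (0.602 CPM, others 0.045 to 0.135), Hoxc4 in replicate 3 (2.7 CPM, others 0.277 to 0.853), Hoxc8 in replicate 3 (3.61 CPM, others 0.162 to 1) and Hoxd3 in replicate 2 (0 CPM, others 0.675 to 0.901). At 48 h Hoxb2 was low in replicate 4 (0.135 CPM, others 0.421 to 0.5).

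At 10 µM BPA, Hoxa9 stood high at 3 h in replicate 1 (105 CPM, others 89.3 to 91.5) and Hoxb9 at 24 h in replicate 4 (1.81 CPM, others 0.433 to 0.786). At 48 h Hoxa2 was high in replicate 4 (3.17 CPM, others 2.13 to 2.42). Replicate 2 of that group held 3 of the flags, with Hoxb5 at 2.03 CPM (others 0.604 to 0.886), Hoxc10 at 1.14 CPM (others 0 to 0.201) and Hoxc12 at 1.37 CPM (others 0.0466 to 0.186), and its epidermal sum was 1380 CPM, where the other 4 had 80 to 852.

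At 50 µM BPA and 3 h, Hoxc6 was high in replicate 4 (5.5 CPM, others 1.27 to 2.41), and replicate 3 was low in Hoxc8 (1.22 CPM, others 2.18 to 2.51) and Hoxd11 (85.1 CPM, others 99.2 to 104). At 48 h replicate 3 was high in Hoxa11 (42.5 CPM, others 37.5 to 38.6) and Hoxc5 (0.957 CPM, others 0.56 to 0.665).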

How the results depend on the processing

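With replicates 1 to 3 only, 3 Hox rows were called from 3 to 24 h and 1 from 24 to 48 h in vehicle, where fewer libraries entered. For 50 µM BPA at 24 h, DESeq2 called 2 (Hoxa10 and Hoxd13) and the replicate block 5 (Hoxa10, Hoxb5, Hoxd11, Hoxd12 and Hoxd13), although only 4 of 5 same-numbered pairs correlated above 0.1 and 4 of 5 libraries correlated best with their own number. With the replicate block 1 row (Hoxd13) was called for 50 µM at 48 h, and 1 (Hoxd13) for 50 against 10 µM at 48 h when numbers came from the library codes. The block moved no other count of calls by over 1.5 times. Leaving out 1 library at a time gave 8 to 13 calls from 3 to 24 h, 4 to 8 from 24 to 48 h and 17 to 20 from 3 to 48 h in vehicle. It gave 1 to 3 for 50 µM at 24 h, 0 to 1 at 48 h and 0 to 1 for the change of the 50 µM effect from 3 to 24 h, and 0 for each remaining dose comparison. In all, 288 alternative counts or levels stayed within 1.5 times or 1 SD and 12 moved, and no alternative reversed a direction. Of single genes, 58 values lost and 8 gained a call under some alternative, and 1049 kept their side. Other scaling factors, one fit of all 45 libraries and no filter moved no count of calls beyond 1.5 times, but they ended some calls of Hoxa2, Hoxa7 and Hoxb2. The causes were not tested. Low counts of Hoxb and Hoxc genes limit what could be detected there. Shares of all genes called under the alternatives are not given here.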

Other observations

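Some Hox genes were nearly without reads. Hoxb13 had 6 counts in all, in replicate 3 of 10 µM BPA at 48 h, and 0 in the other libraries. Hoxb1 had 33 counts in 12 of 45 libraries, with 10 of them in replicate 4 of 10 µM BPA at 24 h. Hoxd1 had 176 counts in 35 libraries. The 2 rows of Hoxd4 had 201 counts in 39 libraries and 27 counts in 9.

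Hox RNA summed over the clusters was 1188, 1088 and 797 CPM at 10 µM BPA after 3, 24 and 48 h, and 1222, 1150 and 863 CPM at 50 µM. The Hoxd13 to Hoxd8 ratio of FPKM was 21.0 ± 3.52, 14.3 ± 2.39 and 8.91 ± 1.25 at 10 µM, and 24.1 ± 4.02, 15.1 ± 2.61 and 11 ± 1.38 at 50 µM (SD, n = 5). Of the exonic length, 62.8% of Hoxd3 and 52.9% of Hoxb3 is shared with other genes, so their counts are uncertain.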
